A study of Mus musculus with 35 samples.

Results

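The genes described here are the potassium channel genes of the mouse, taken as every gene of the count table whose symbol starts with Kcn. They cover pore-forming subunits, auxiliary subunits and a few antisense RNAs, and 90 of the 27012 genes in the table met the rule. Of these, 42 had a mean normalised read count of at least 10 over all libraries and were tested, among 13695 genes that passed the same filter. RNA was sequenced from the heart apex of mice of mixed C57Bl/6/FVB strain, labelled as 6 weeks old and killed 3 days after surgery. IRS1KO mice (labelled alphaMHC-Cre X IRS1-flox) and IRS2KO mice (labelled alphaMHC-Cre X IRS2-flox) carry alleles for the deletion of insulin receptor substrate 1 or 2 in cardiomyocytes, the cells in which the alphaMHC promoter drives Cre recombinase. WT mice carried the IRS2-flox allele without Cre, and no group analysed here carried Cre alone. Each genotype had a TAC group, in which a suture narrowed the aorta between the innominate and the left common carotid artery (transaortic constriction, a pressure load on the left ventricle), and a sham-operated group. There were 6 libraries in each group except WT TAC, which had 5. The labels do not tie each library to a mouse of its own, so the p-values rest on variation among libraries, which may be partly technical.

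Potassium channels let potassium leave the cell and so repolarise the cardiomyocyte after each action potential and hold its resting potential. In the mouse ventricle the fast transient outward current (Kv4 channels with the subunit KChIP2) carries most of early repolarisation, other voltage-gated channels carry the slower components, and inward rectifiers set the resting potential. Lower potassium currents and a longer action potential are a known feature of pressure-overloaded and failing hearts.

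The promoters of 4 members are shown because they were the 2 largest falls and the 2 largest rises after TAC, by the median log2 fold change over the 3 genotypes, among members called in all 3 and with a promoter entry in RefSeq. Each runs 5′ to 3′ on the strand of the gene, from 250 bases before to 50 bases after the start, in build GRCm38.p6. Kcnip2 lies at chr19:45816014-45816313 (minus strand), Kcnj3 at chr2:55435720-55436019 (plus strand), Kcnn4 at chr7:24370013-24370312 (plus strand), and Kcnab2 at chr4:152477500-152477799 (minus strand, the most upstream of its 3 windows). Capitals mark matches to any of 4 motifs searched on both strands. The CACCC box read by KLF factors was searched as CCACCC. The site of GATA factors was searched as AGATAA. The E-box was searched as CACGTG, which reads alike on both strands. The AP-1 site was searched as TGANTCA, with any base at N.
Kcnip2: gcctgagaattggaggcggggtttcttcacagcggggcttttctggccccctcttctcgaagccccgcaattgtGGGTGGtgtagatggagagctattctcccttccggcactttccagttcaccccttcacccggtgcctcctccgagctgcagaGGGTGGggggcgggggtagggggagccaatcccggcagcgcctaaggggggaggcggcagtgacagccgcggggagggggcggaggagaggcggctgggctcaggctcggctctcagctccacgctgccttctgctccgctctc
Kcnj3: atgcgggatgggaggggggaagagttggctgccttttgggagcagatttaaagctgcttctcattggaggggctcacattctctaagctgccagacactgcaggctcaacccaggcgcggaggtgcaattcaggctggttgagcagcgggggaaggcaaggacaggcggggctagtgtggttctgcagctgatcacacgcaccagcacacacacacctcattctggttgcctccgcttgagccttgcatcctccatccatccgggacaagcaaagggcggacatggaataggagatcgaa
Kcnn4: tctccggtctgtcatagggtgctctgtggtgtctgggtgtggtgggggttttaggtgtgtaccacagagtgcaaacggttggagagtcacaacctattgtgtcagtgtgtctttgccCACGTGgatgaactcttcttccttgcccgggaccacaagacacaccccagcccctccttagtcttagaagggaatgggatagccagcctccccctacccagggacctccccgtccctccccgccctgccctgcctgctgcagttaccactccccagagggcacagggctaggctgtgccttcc
Kcnab2: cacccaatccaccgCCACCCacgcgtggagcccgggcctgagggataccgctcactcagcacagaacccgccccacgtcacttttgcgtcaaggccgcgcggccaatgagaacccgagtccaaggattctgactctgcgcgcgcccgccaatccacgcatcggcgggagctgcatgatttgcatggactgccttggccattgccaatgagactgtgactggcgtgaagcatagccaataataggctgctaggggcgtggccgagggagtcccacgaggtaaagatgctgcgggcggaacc
Kcnip2 held 2 matches to the CACCC box, both on the strand opposite to the gene. Kcnab2 held 1 match to the CACCC box, Kcnn4 held 1 E-box match, and Kcnj3 held none of the motifs. A promoter entry existed for 67 of the 90 members and for 28 of the 42 tested members. The CACCC box occurred in 57.6% of the 92 Kcn windows, against 31.5% of all 32851 windows. The GATA motif occurred in 4.35% of the Kcn windows, against 11.2% of all windows, the E-box in 7.61% against 7.15%, and the AP-1 motif in 4.35% against 7.81%. These matches describe letters only.

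Libraries held 11707111 to 14609467 reads. Irs1 had 0 to 80.3 normalised reads in IRS1KO libraries and 135 to 343 in all others. Irs2 had 78.6 to 196 in IRS2KO TAC libraries and 98.1 to 138 in IRS2KO sham libraries. These ranges overlapped WT TAC (130 to 303) and WT sham (93.0 to 564), so Irs2 did not fully separate these groups. Its median was lower in IRS2KO than in WT, 114 against 252 in TAC and 124 against 163 in sham libraries. Summed cardiomyocyte markers (7 genes, Myh6 and Tnnt2 among them) were 373633 to 819653 in TAC libraries and 807504 to 919309 in sham libraries. Summed macrophage markers were 4382 to 16896 in TAC libraries, against 2180 to 3096 in sham libraries. Macrophage genes rose (6 of 6 in each genotype), and cardiomyocyte genes fell (5 of 7 in IRS1KO, and 6 of 7 in IRS2KO and in WT, with 1 of 7 rising in IRS2KO). Endothelial genes fell (5 of 5 in IRS1KO and IRS2KO and 4 of 5 in WT), and fibroblast genes mostly rose (3 of 5, 3 of 5 and 4 of 5). Of all tested genes 28.3% to 32.4% rose and 26.6% to 31.7% fell in the 3 genotypes. In such tissue RNA, fewer cells of a type and less RNA per cell cannot be told apart. The part of cell composition in the results that follow was not tested. The atrial marker sum was 331 in WT sham 5 and 8.61 to 36.9 elsewhere.

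Per kilobase of annotated exon, which allows levels to be compared between genes, the mean level over all libraries was highest for Kcnk3 (653), a tandem-pore background channel. Kcnip2 (474), which encodes KChIP2, came next. They were followed by Kcnj11 (349), the pore of the cardiac ATP-sensitive channel, and by Kcng2 (276), a silent modifier of Kv2 channels. The order of the top pair depended on the group: in IRS1KO sham hearts Kcnip2 stood first at 904 per kilobase against 681 for Kcnk3, whereas in WT sham hearts Kcnk3 had 783 and Kcnip2 656. In TAC hearts Kcnip2 ranked behind Kcng2 in all 3 genotypes, with 163 per kilobase in IRS1KO, 193 in IRS2KO and 233 in WT against 256, 287 and 277 for Kcng2. Kcnip2 supplied 5.52%, 5.71% and 7.15% of all normalised Kcn reads in IRS1KO, IRS2KO and WT TAC hearts, against 18.8%, 14.5% and 14.1% in the sham hearts of the same genotypes. All Kcn reads together summed to 9455 ± 1836 in IRS1KO TAC (SD, n = 6) against 16708 ± 512 in IRS1KO sham. They summed to 10526 ± 2460 in IRS2KO TAC against 15721 ± 220 in IRS2KO sham, and to 10908 ± 2047 in WT TAC (n = 5) against 16120 ± 658 in WT sham.

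The 48 members below the filter had means of 0.0558 to 9.71, with 22 of them under 1. Those nearest the filter were Kcnc1 (9.71), Kcna1 (9.51), Kcna6 (9.50), Kcnc2 (8.94), Kcnh1 (7.94), Kcnj4 (7.14), Kcnk5 (6.58), Kcnab3 (6.20), Kcne1l (5.15) and Kcnd3os (5.01). Kcnma1, the pore of the large-conductance calcium-activated channel, had a mean of 1.60, and Kcne2, a partner of ERG channels, had 0.160. These genes were left out of the main test and entered only the runs without a filter. Kcnc1, the nearest to the filter, had 0 to 2.97 in IRS1KO TAC hearts against 1.08 to 9.32 in IRS1KO sham hearts. It had 0 to 5.17 in IRS2KO TAC against 15.1 to 32.1 in IRS2KO sham hearts. In WT it had 0.898 to 7.15 in TAC against 10.95 to 29.1 in sham hearts. Some tested members share exonic bases with another gene, 165 for Kcnd3 and Kcnd3os, 229 for Kcnk3 and Gm9899 and 125 for Kcnab2 and Gm16334, and their counts may hold reads of both.

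After TAC, most tested potassium channel genes that moved were lower. In IRS1KO hearts 22 of the 42 fell and 10 rose (limma, adjusted p under 0.05), where 31.7% of all tested genes fell and 32.4% rose. In IRS2KO hearts 23 fell and 11 rose, against backgrounds of 31.1% and 31.3%, and in WT hearts 21 fell and 9 rose, against 26.6% and 28.3%. The share of members that fell was thus above the background in each genotype, and the share that rose was at or below it. The groups did not overlap for 14 of the falls and 8 of the rises in IRS1KO, for 14 and 5 in IRS2KO, and for 12 and 6 in WT. Calls with groups that did not overlap made up 16.6% (lower) and 20.4% (higher) of all tested genes in IRS1KO, 13.6% and 15.7% in IRS2KO, and 14.1% and 16.9% in WT. The members' share was thus above this background for the falls and at or below it for the rises. The median log2 fold change of the members was -0.51 in IRS1KO, -0.55 in IRS2KO and -0.43 in WT, whereas the median of all tested genes was -0.01 in each. Over the 42 members the log2 fold changes of IRS1KO and WT had a Pearson r of 0.95, those of IRS2KO and WT 0.94, and those of IRS1KO and IRS2KO 0.95. These are descriptions across genes, which are not independent replicates. In all 3 genotypes 19 members fell and 9 rose, and 5 (Kcng2, Kcnh7, Kcnn3, Kcnq5 and Kcnt2) passed the test in none with the deposited scaling. The share of all tested genes with the same patterns is not given here, so these counts have no background to be read against.

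**Figure D1:**
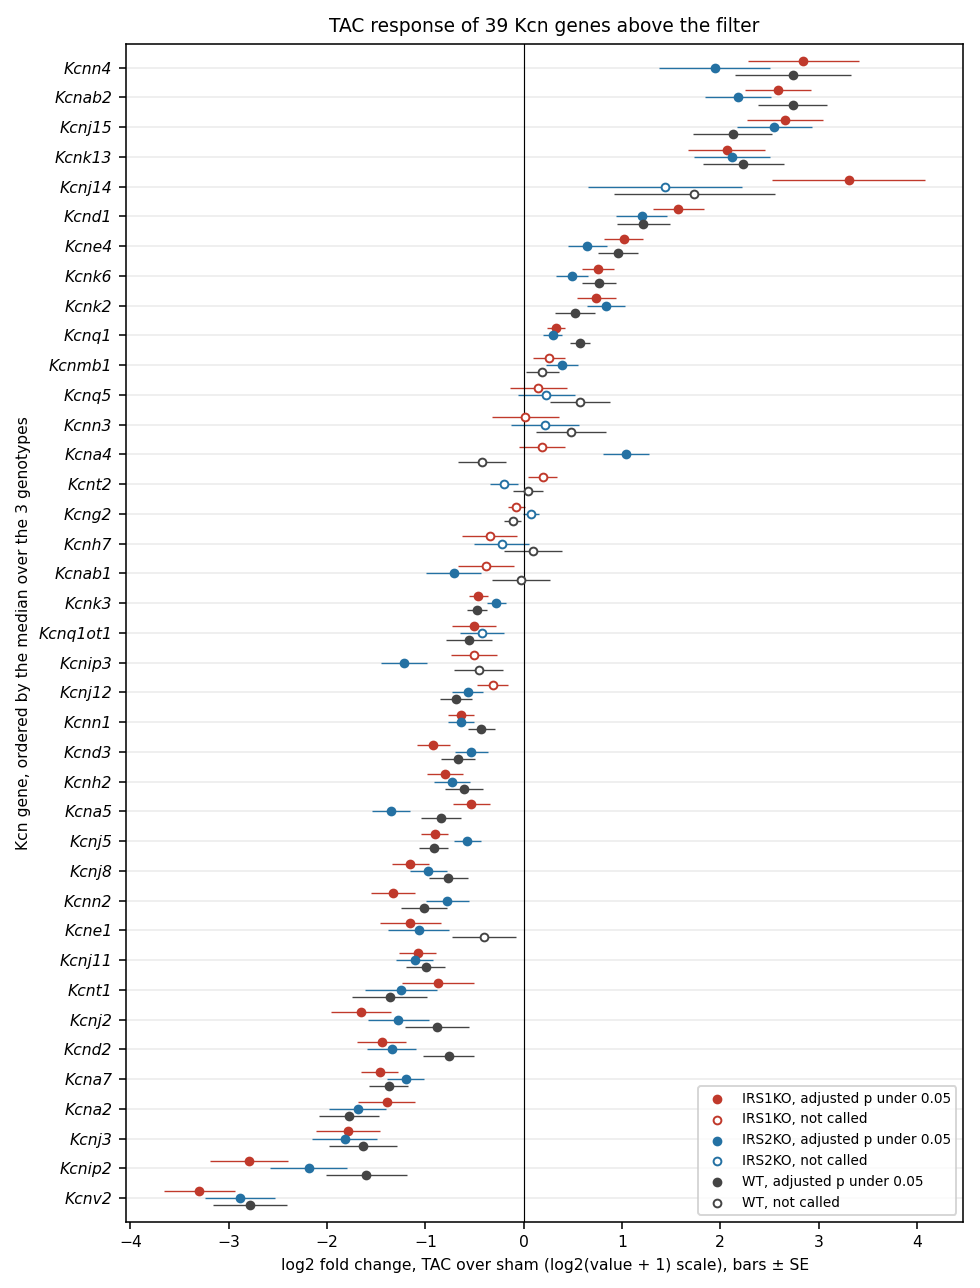
Log2 fold change (TAC over sham, on the log2(value + 1) scale) of 39 of the 42 tested potassium channel genes in IRS1KO, IRS2KO and WT hearts, with bars of ± SE and filled points for limma adjusted p under 0.05. Kcnv2, Kcnip2 and Kcnj3 lie at the low end and Kcnab2, Kcnj15 and Kcnn4 at the high end in each genotype.

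The split of these counts into rises and falls depends in part on the scaling. The deposited values are scaled by size factors that centre the typical gene. When each library was instead brought to the same total, the median of all tested genes moved to 0.30 in IRS1KO, 0.33 in IRS2KO and 0.24 in WT, and the members split into 17 lower and 13 higher, 18 and 13, and 15 and 12. With that scaling 15.8%, 13.8% and 11.6% of all tested genes fell and 52.4%, 54.3% and 45.4% rose in IRS1KO, IRS2KO and WT. Rises made up 43.3%, 41.9% and 44.4% of the members' calls in IRS1KO, IRS2KO and WT with that scaling, against 31.2%, 32.4% and 30.0% with the deposited values. Among all genes called, rises made up 76.8%, 79.7% and 79.7%, against 50.6%, 50.2% and 51.6% with the deposited values. The member medians then were -0.21, -0.21 and -0.18, below the median of all genes as before. Of 97 calls on single members, 14 were lost under that scaling, and 1 of them, Kcnk3 in IRS2KO, also changed sign. The others were the falls of Kcna5, Kcnk3, Kcnq1ot1 and Kcnt1 in IRS1KO, of Kcnab1, Kcnd3, Kcnj5 and Kcnj12 in IRS2KO, and of Kcnd2, Kcnh2, Kcnj2, Kcnn1 and Kcnq1ot1 in WT. Kcng2 passed the test as higher under it in IRS1KO (log2 0.23) and IRS2KO (0.41), Kcnmb1 in IRS1KO (0.56) and WT (0.44), Kcnj14 in IRS2KO (1.77) and WT (1.99), Kcnt2 in IRS1KO (0.50), and Kcnq5 in WT (0.80).

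The transient outward current genes gave some of the largest falls. Of the 5 tested Kv4 and KChIP genes, 3 fell and 1 rose in IRS1KO and in WT, and 4 fell and 1 rose in IRS2KO. Of all tested genes 31.7%, 31.1% and 26.6% fell and 32.4%, 31.3% and 28.3% rose in IRS1KO, IRS2KO and WT. Kcnip2 encodes KChIP2, the cytosolic subunit that Kv4 channels need to reach the membrane in the ventricle. For groups of 6 libraries the lowest, median and highest normalised read counts are given, and for WT TAC all 5 values, in the order of replicates 1, 2, 3, 5 and 6. Kcnip2 had 212, 480.1 and 1258 in IRS1KO TAC hearts, against 2843, 3104 and 3434 in IRS1KO sham hearts. It had 193, 465 and 1365 in IRS2KO TAC hearts, against 2005, 2331 and 2419 in IRS2KO sham hearts. Values in WT TAC hearts were 451, 1411, 566, 728 and 889, against 2023, 2209 and 2799 in WT sham hearts. Every TAC library lay below every sham library of its genotype. The SD was 411 in TAC against 217 in sham hearts of IRS1KO, 539 against 171 in IRS2KO, and 375 against 290.3 in WT. Kcnip2 fell by 2.79 on the log2 scale in IRS1KO (SE 0.39, limma adjusted p = 4.2e-07), by 2.19 in IRS2KO (SE 0.39, 1.9e-05) and by 1.60 in WT (SE 0.41, 0.0017).

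Kcnd2 encodes Kv4.2, a pore of the same current in the mouse ventricle. It had 90.4, 163 and 279.5 in IRS1KO TAC hearts, against 335, 424 and 551 in IRS1KO sham hearts, and it fell by 1.44 (SE 0.25, limma adjusted p = 9.7e-06). It had 57.4, 124 and 265 in IRS2KO TAC hearts, against 276, 313 and 379.6 in IRS2KO sham hearts, and it fell by 1.34 (SE 0.25, limma adjusted p = 2.9e-05). WT TAC libraries had 126, 229, 173, 189 and 186, against 265, 305 and 342 in WT sham hearts, and it fell by 0.76 (SE 0.26, limma adjusted p = 0.015). No TAC library overlapped the sham libraries of its genotype, yet the WT call was lost without WT TAC 1 (log2 fold change -0.64, limma adjusted p = 0.055). Kcnd3, the other main Kv4 pore of the heart, fell by 0.92, 0.53 and 0.67 in IRS1KO, IRS2KO and WT. It had 83.3 to 169, 92.8 to 186 and 104 to 162 in the TAC hearts of these genotypes, against 215 to 260.0, 156 to 244 and 164 to 235 in their sham hearts, with overlap in IRS2KO alone. Kcnd1, a Kv4 pore of low level here, moved the other way and rose by 1.57, 1.20 and 1.22, or 3.28-fold, 2.58-fold and 2.49-fold. It had 12.9 to 37.7 in IRS1KO TAC, 13.2 to 43.4 in IRS2KO TAC and 15.4 to 29.0 in WT TAC hearts, against 4.31 to 10.4, 7.69 to 15.7 and 5.27 to 11.02 in the sham hearts, and the groups overlapped in IRS2KO. Kcnip3 (KChIP3) was 2.37-fold lower in IRS2KO TAC hearts (11.2, 17.6 and 25.1) than in IRS2KO sham hearts (31.9, 43.7 and 49.4), with no overlap (limma adjusted p = 4.6e-05). Its log2 fold changes of -0.51 in IRS1KO and -0.46 in WT did not pass the test. Dpp6 and Dpp10, the peptidase-like partners of Kv4 channels, were at 0 to 1.75 reads in every library.

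**Figure D2:**
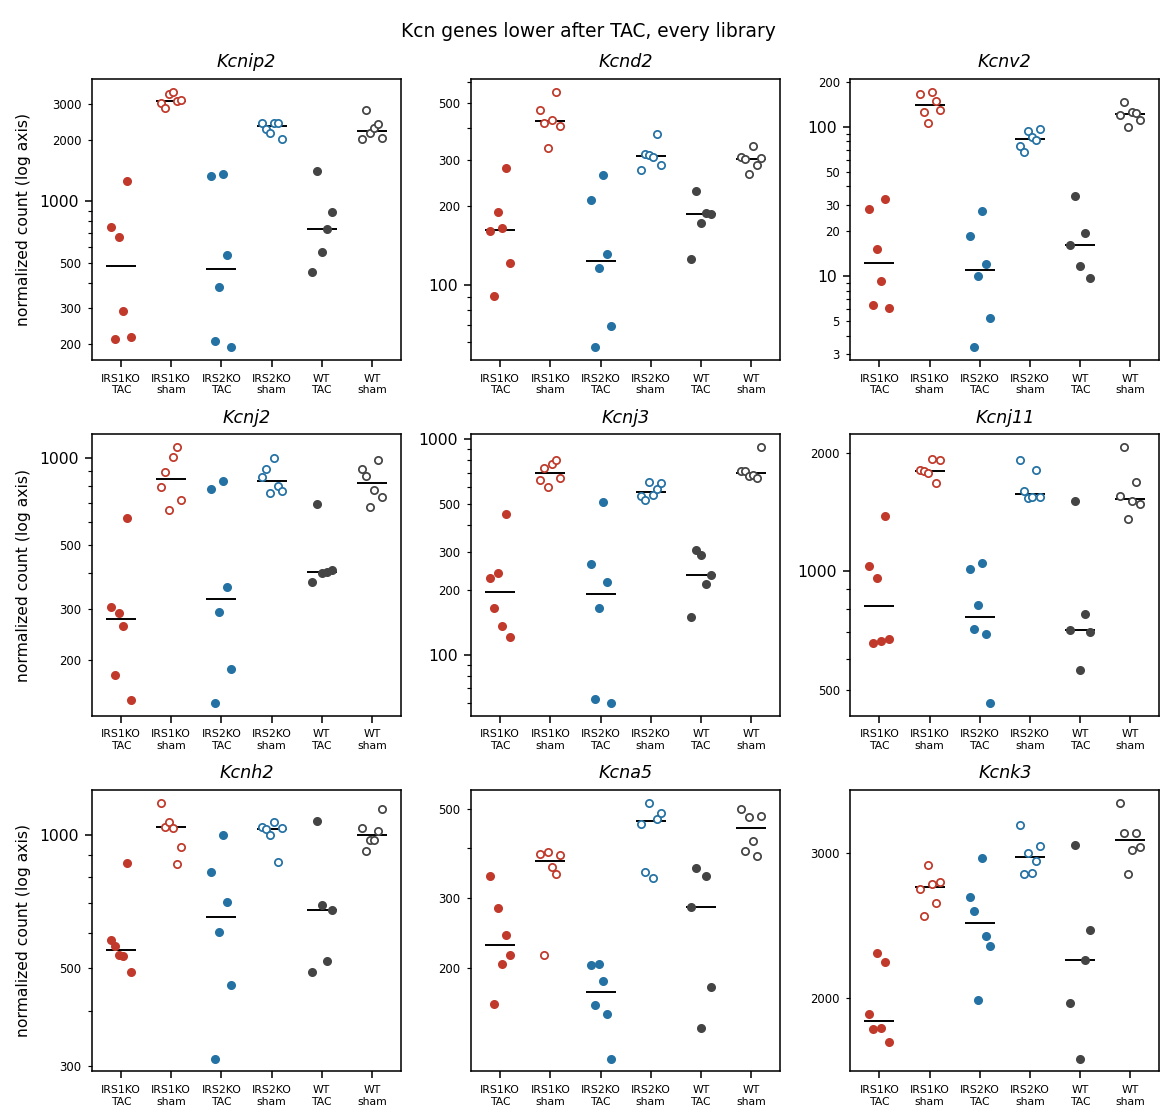
Normalised read counts (log axis) in each library for 9 potassium channel genes that fell after TAC, with filled points for TAC, open points for sham and a black line at the group median. For Kcnip2, Kcnv2, Kcnd2 and Kcnj3 each TAC group lies below the sham group of its genotype, while for Kcnh2 and Kcnk3 the groups come close or overlap.

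Of the 6 tested Kv1 and beta-subunit genes, 3 fell and 1 rose in IRS1KO and in WT, and 4 fell and 2 rose in IRS2KO. In these genotypes 26.6% to 31.7% of all tested genes fell and 28.3% to 32.4% rose. Kcna5 encodes Kv1.5, a pore of the ultrarapid delayed rectifier current of the mouse ventricle. It had 119, 174 and 205 in IRS2KO TAC hearts, against 335, 466 and 518 in IRS2KO sham hearts, and it was 2.55-fold lower (log2 -1.35, SE 0.19, limma adjusted p = 6e-07). Among WT hearts, the 5 TAC libraries had 285, 356, 141, 339 and 179, against 382, 447 and 499 in WT sham hearts (1.70-fold lower, limma adjusted p = 0.00082). Neither pair of groups overlapped. In IRS1KO the groups did overlap, with 163, 229 and 340.0 in TAC hearts against 216, 370.3 and 389.5 in sham hearts, and the fall of 0.53 (limma adjusted p = 0.016) was lost without IRS1KO TAC 2 (-0.43). Kcna2 (Kv1.2) was 2.54-fold, 3.02-fold and 3.27-fold lower in IRS1KO, IRS2KO and WT TAC hearts, with 9.97 to 30.7, 9.30 to 37.7 and 8.17 to 29.8 there against 32.1 to 64.1, 48.7 to 65.9 and 39.4 to 67.2 in the sham hearts. Kcna7 (Kv1.7) was 2.82-fold, 2.23-fold and 2.60-fold lower, with 14.02 to 25.8, 11.2 to 34.1 and 17.1 to 32.6 against 45.5 to 57.6, 40.4 to 61.4 and 51.7 to 67.2. Neither gene's groups overlapped in any genotype. Kcna4 encodes Kv1.4, the pore of the slow transient outward current. It rose in IRS2KO, with 23.4, 29.1 and 38.3 in TAC hearts against 7.38, 13.6 and 22.6 in sham hearts (2.03-fold, limma adjusted p = 0.00029), and its log2 fold changes were 0.19 in IRS1KO (28.2 to 44.1 in TAC hearts against 22.4 to 49.4 in sham hearts) and -0.42 in WT (8.08 to 25.5 against 16.5 to 31.8), neither past the test.

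Kcnab2, the beta subunit Kv-beta-2, was among the largest rises. It had 46.6, 65.8 and 140.2 in IRS1KO TAC hearts, against 7.25, 11.9 and 15.8 in IRS1KO sham hearts (6.81-fold, log2 2.59, SE 0.34, limma adjusted p = 1.1e-07). It had 32.6, 89.6 and 127 in IRS2KO TAC hearts, against 7.69, 14.5 and 23.4 in IRS2KO sham hearts (5.16-fold, log2 2.18, SE 0.34, limma adjusted p = 2e-06). Values in WT TAC hearts were 119, 52.8, 129.8, 126 and 60.6, against 8.95, 13.9 and 17.6 in WT sham hearts (7.40-fold, log2 2.74, SE 0.35, limma adjusted p = 2.1e-07). No group overlapped, and the lowest WT TAC value was that of WT TAC 2. Kcnab1, the other tested beta subunit, fell in IRS2KO (log2 -0.71, limma adjusted p = 0.029), a call lost without IRS2KO TAC 5 (-0.46) or IRS2KO sham 6 (-0.58) and with only the groups compared (limma adjusted p = 0.071). Its values there were 2.79 to 12.2 in TAC hearts against 7.69 to 22.9 in sham hearts. It had log2 fold changes of -0.38 in IRS1KO (6.14 to 13.9 in TAC hearts against 9.32 to 24.5 in sham hearts) and -0.03 in WT (7.18 to 20.4 against 8.95 to 17.5), neither past the test.

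**Figure D3:**
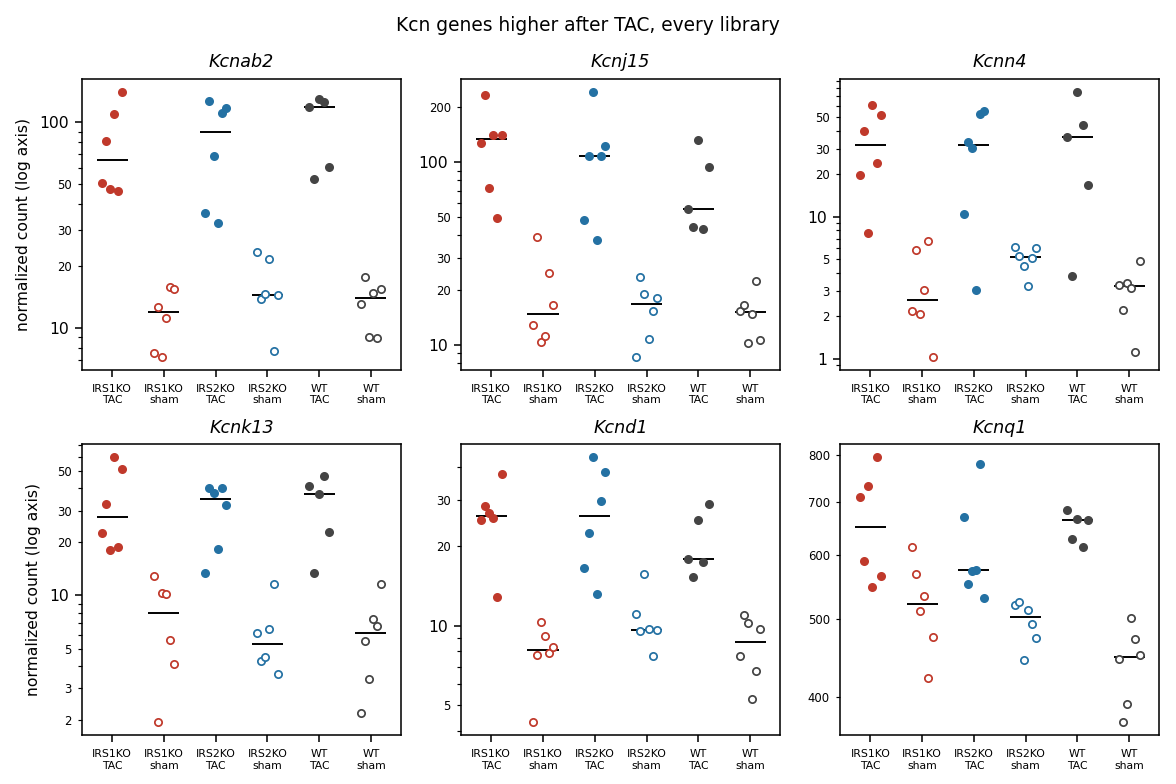
Normalised read counts (log axis) in each library for 6 potassium channel genes that rose after TAC, with filled points for TAC, open points for sham and a black line at the group median. Kcnab2, Kcnj15 and Kcnk13 separate TAC from sham in every genotype, while Kcnn4 has 1 low library in WT TAC and in IRS2KO TAC.

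Kcnv2 encodes Kv8.2, an electrically silent subunit that joins Kv2 pores and alters their gating. It was the largest fall among the 42 tested members in each genotype. It had 6.14, 12.3 and 32.7 in IRS1KO TAC hearts, against 107, 140.3 and 172 in IRS1KO sham hearts (8.69-fold lower, log2 -3.30, SE 0.36, limma adjusted p = 5e-09). It had 3.33, 11.1 and 27.5 in IRS2KO TAC hearts, against 68.1, 83.6 and 97.5 in IRS2KO sham hearts (6.54-fold lower, log2 -2.88, SE 0.36, limma adjusted p = 7.6e-08). WT TAC libraries had 16.2, 34.6, 11.7, 19.4 and 9.66, against 99.8, 122 and 147 in WT sham hearts (6.63-fold lower, log2 -2.79, SE 0.38, limma adjusted p = 4.8e-07). The highest TAC value of any genotype, 34.6, lay below the lowest sham value, 68.1. Kcng2 (Kv6.2), also a silent partner of Kv2 channels, had medians of 760.5, 895 and 829 in IRS1KO, IRS2KO and WT TAC hearts, against 809, 818 and 887 in the sham hearts, and passed the test in none.

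Among the delayed rectifier genes, the members moved in different directions. Kcnq1, the pore of the slow delayed rectifier, rose 1.26-fold, 1.24-fold and 1.48-fold in IRS1KO, IRS2KO and WT, with 683, 629, 665, 615 and 665 in WT TAC hearts against 373, 449 and 502 in WT sham hearts (limma adjusted p = 2.4e-05). Kcnq1 had 548 to 794 in IRS1KO TAC and 531 to 779 in IRS2KO TAC hearts, against 422 to 614 and 445 to 525 in the sham hearts of these genotypes. Kcne1, its auxiliary subunit, fell in IRS1KO (41.8, 98.6 and 209 in TAC hearts against 133, 214 and 252 in sham hearts, 1.92-fold lower, limma adjusted p = 0.0018). Kcne1 also fell in IRS2KO (50.9, 69.3 and 92.0 against 105, 149 and 180.0, 2.11-fold lower, limma adjusted p = 0.0036), and in WT its log2 fold change of -0.41 (49.6 to 197 in TAC hearts against 62.0 to 185 in sham hearts) did not pass the test. Kcne4, an auxiliary subunit that inhibits Kv channels when co-expressed, rose 2.03-fold, 1.62-fold and 2.11-fold. Kcnh2 (ERG1), the pore of the rapid delayed rectifier, had 489.9, 547 and 860.4 in IRS1KO TAC hearts against 857, 1038 and 1179 in IRS1KO sham hearts (1.72-fold lower, limma adjusted p = 0.00036), and was 1.55-fold lower in IRS2KO (311 to 999 in TAC hearts against 866 to 1068 in sham hearts) and 1.46-fold lower in WT (488 to 1071 against 916 to 1141). The groups overlapped in all 3 genotypes. Kcnq5 (0.15, 0.23 and 0.57) and Kcnh7 (-0.34, -0.22 and 0.09) passed the test in no genotype. Kcnq1ot1, the antisense RNA within Kcnq1, had log2 fold changes of -0.50 in IRS1KO (limma adjusted p = 0.049), -0.42 in IRS2KO (0.099) and -0.56 in WT (0.044). The IRS1KO call was lost without any of 23 of the 35 libraries, to as little as -0.39. The WT call was lost without any of 5 (WT TAC 5 or 6 or WT sham 1, 3 or 6), to as little as -0.38, and also with edgeR (adjusted p = 0.052). Without a filter on low values neither call passed (limma adjusted p = 0.074 in IRS1KO and 0.068 in WT). It shares 121 exonic bases with Kcnq1 on the other strand, and the sources used here do not say whether counting used strand.

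Inward rectifiers were mostly lower, with 5 of 8 tested genes falling in IRS1KO and 6 of 8 in IRS2KO and in WT. The share of all tested genes that fell was 31.7% in IRS1KO, 31.1% in IRS2KO and 26.6% in WT. Kcnj2 (Kir2.1), the main pore of the current that sets the resting potential, had 146, 277 and 621 in IRS1KO TAC hearts against 663, 846 and 1089 in IRS1KO sham hearts (2.86-fold lower, limma adjusted p = 2.6e-05). In IRS2KO the groups overlapped, with 142, 326 and 835 in TAC hearts against 755, 831 and 998 in sham hearts (1.97-fold lower, limma adjusted p = 0.00063). Among WT hearts, the 5 TAC libraries had 374, 696, 401, 404 and 409, against 678, 821 and 981 in WT sham hearts (1.81-fold lower, limma adjusted p = 0.022). WT TAC 2 alone reached into the WT sham range, and the WT call was lost without WT TAC 1 (log2 -0.82, limma adjusted p = 0.051). Kcnj12 (Kir2.2), which shares that current, fell by 0.57 in IRS2KO and 0.69 in WT, and its -0.31 in IRS1KO did not pass the test (limma adjusted p = 0.079). It had 158 to 274 in IRS1KO TAC, 138 to 290.4 in IRS2KO TAC and 168 to 291 in WT TAC hearts, against 222 to 330.3, 253 to 351 and 253 to 358 in the sham hearts, and the groups overlapped in each genotype.

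Kcnj3 and Kcnj5 (Kir3.1 and Kir3.4) form the channel opened by acetylcholine. Kcnj3 had 121, 196 and 453 in IRS1KO TAC hearts against 599.8, 697 and 801 in IRS1KO sham hearts (3.14-fold lower, log2 -1.79, SE 0.33, limma adjusted p = 2.3e-05). It had 59.9, 192 and 512 in IRS2KO TAC hearts against 522, 571 and 636 in IRS2KO sham hearts (2.71-fold lower, log2 -1.82, SE 0.33, limma adjusted p = 2e-05). Values in WT TAC hearts were 149.97, 308, 290.2, 214 and 235, against 665, 699 and 919.7 in WT sham hearts (3.05-fold lower, log2 -1.64, SE 0.35, limma adjusted p = 0.00023). No group overlapped, and WT sham 5, the library with the high atrial marker sum, held the lowest WT sham value, 665. Kcnj3 shares 1621 exonic bases with Gm26794 on the other strand. Kcnj5 fell 1.82-fold, 1.47-fold and 1.86-fold in IRS1KO, IRS2KO and WT, with 354 to 767, 487 to 934 and 435 to 742 in TAC hearts against 901 to 977, 824 to 1114 and 879 to 1143 in sham hearts. Of 5 genes of muscarinic and adenosine control, Rgs6, which speeds the closing of this channel, fell in all 3 genotypes (log2 -0.99, -0.86 and -0.55), Gnb5 fell in IRS2KO (-0.27), and Chrm2, Adora1 and Rgs4 passed in none.

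The ATP-sensitive channel genes fell together. Kcnj11 (Kir6.2), its pore in cardiomyocytes, had 658, 817 and 1386 in IRS1KO TAC hearts against 1677, 1804 and 1936 in IRS1KO sham hearts (2.03-fold lower, limma adjusted p = 1.1e-05). It had 462, 768 and 1053 in IRS2KO TAC hearts against 1538, 1575 and 1915 in IRS2KO sham hearts (2.09-fold lower, limma adjusted p = 8.3e-06). WT TAC libraries had 711, 1509, 561, 777 and 702, against 1357, 1532 and 2069 in WT sham hearts (1.89-fold lower, limma adjusted p = 0.00011), where WT TAC 2 alone reached the sham range. Kcnj8 (Kir6.1), the pore in vascular muscle, fell 2.18-fold, 1.85-fold and 1.64-fold in IRS1KO, IRS2KO and WT, with 167 to 335, 177 to 434 and 205 to 442 in TAC hearts against 475 to 687, 395 to 586 and 464 to 552 in sham hearts. Both regulatory subunits fell as well: the log2 fold changes of Abcc8 (SUR1) were -1.05, -1.01 and -0.74, and those of Abcc9 (SUR2) were -1.49, -1.52 and -1.25.

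Kcnj15 (Kir4.2), best known from the kidney, rose. It had 49.6, 134 and 233 in IRS1KO TAC hearts against 10.4, 14.7 and 38.7 in IRS1KO sham hearts (6.65-fold, limma adjusted p = 6.3e-07). It had 37.7, 109 and 242 in IRS2KO TAC hearts against 8.61, 16.7 and 23.4 in IRS2KO sham hearts (7.02-fold, limma adjusted p = 1.5e-06). Among WT hearts, the 5 TAC libraries had 55.7, 44.2, 132, 42.9 and 93.9, against 10.2, 15.0 and 22.4 in WT sham hearts (4.92-fold, limma adjusted p = 6.3e-05). TAC and sham did not overlap in any genotype.

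Of the 4 tested tandem-pore channels, which carry background current, 3 rose and 1 fell in each genotype with the deposited scaling. With that scaling 28.3% to 32.4% of all tested genes rose and 26.6% to 31.7% fell. The fall among the 4 was that of Kcnk3 (TASK-1), the gene with the highest level per length, and it was small. Kcnk3 had 1771, 1879 and 2271 in IRS1KO TAC hearts against 2516, 2729.8 and 2899.6 in IRS1KO sham hearts (1.37-fold lower, limma adjusted p = 0.00013), with no overlap. Values in WT TAC hearts were 1977, 3068, 1692, 2223 and 2421, against 2824, 3109 and 3445 in WT sham hearts (1.37-fold lower, limma adjusted p = 0.00025). In IRS2KO it had 1992, 2465 and 2958 in TAC hearts against 2827, 2960.3 and 3242 in sham hearts (log2 -0.28, limma adjusted p = 0.013), a call that was lost without IRS2KO TAC 3 (-0.22) and that turned to 0.06 with the same total per library. Kcnk2 (TREK-1), a stretch-sensitive channel, rose 1.69-fold in IRS1KO, 1.93-fold in IRS2KO and 1.47-fold in WT, where the call (limma adjusted p = 0.032) was lost without any of 6 libraries (WT TAC 3, 5 or 6 or WT sham 1, 3 or 5), to as little as log2 0.42, and also with DESeq2 (adjusted p = 0.052) and without a filter on low values (limma adjusted p = 0.055). It shares 604 exonic bases with A430027H14Rik on the other strand. Kcnk6 (TWIK-2) rose by 0.76, 0.49 and 0.77 on the log2 scale. Kcnk13 (THIK-1), known in mice from microglia and other phagocytes, rose 4.50-fold, 4.97-fold and 5.26-fold, with 18.1, 27.5 and 59.6 in IRS1KO TAC hearts against 1.94, 7.92 and 12.9 in IRS1KO sham hearts. It had 13.4 to 40.01 in IRS2KO TAC and 13.4 to 47.0 in WT TAC hearts, against 3.61 to 11.5 and 2.19 to 11.6 in the sham hearts, and the groups did not overlap in any genotype.

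Of 7 tested calcium- and sodium-activated channels, 3 fell in each genotype, and 1 rose in IRS1KO and in WT and 2 in IRS2KO. Shares of all tested genes were 26.6% to 31.7% lower and 28.3% to 32.4% higher. On 7 genes these counts are not read as a trait of the family. Kcnn4 (the intermediate-conductance channel KCa3.1, known from blood cells and fibroblasts) had 7.62, 31.8 and 60.4 in IRS1KO TAC hearts against 1.03, 2.61 and 6.78 in IRS1KO sham hearts (log2 2.84, SE 0.56, limma adjusted p = 5.9e-05). It had 3.05, 31.7 and 55.4 in IRS2KO TAC hearts against 3.23, 5.22 and 6.15 in IRS2KO sham hearts (log2 1.94, SE 0.56, limma adjusted p = 0.0034). WT TAC libraries had 35.9, 3.84, 74.8, 43.9 and 16.7, against 1.12, 3.22 and 4.85 in WT sham hearts (log2 2.74, SE 0.59, limma adjusted p = 0.0003). IRS1KO TAC and sham did not overlap, whereas WT TAC 2 (3.84) lay within the WT sham range and IRS2KO TAC 4 (3.05) below all IRS2KO shams. These were the libraries with the lowest macrophage marker sums of their groups, 5587 and 4382, and the part of macrophages in the rise of Kcnn4 was not tested. The small-conductance genes Kcnn2 and Kcnn1 fell in all 3 genotypes, Kcnn2 by 2.42-fold, 1.65-fold and 1.95-fold and Kcnn1 by 0.64, 0.63 and 0.43 on the log2 scale. Kcnt1, a sodium-activated channel, fell by 0.87, 1.24 and 1.36 on the log2 scale at 1.86 to 32.0 reads, and its IRS1KO call (limma adjusted p = 0.037) was lost without any of 5 libraries (IRS1KO TAC 2 or 4 or IRS1KO sham 1, 3 or 4), to as little as -0.72, and without a filter (limma adjusted p = 0.055). Kcnn3 (0.02, 0.22 and 0.48) and Kcnt2 (0.19, -0.20 and 0.04) passed in no genotype. Kcnmb1, the smooth muscle beta subunit of the large-conductance channel, rose in IRS2KO (log2 0.39, limma adjusted p = 0.037), a call lost with edgeR, with DESeq2, without a filter, with only the groups compared and without any of 8 libraries (IRS2KO TAC 2, 3 or 6 or IRS2KO sham 1 to 5), to as little as 0.32. Of 4 gamma subunits of that channel 1 was tested: Lrrc52 fell by 1.48, 1.87 and 1.59, with 0.876, 5.25 and 13.6 in IRS1KO TAC hearts against 6.46, 17.2 and 23.5 in IRS1KO sham hearts.

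Genes that act with potassium channels, from lists chosen with earlier results known, moved in both directions. Klf15, a transcription factor known to activate Kcnip2 in the mouse heart, had 209, 284 and 582 in IRS1KO TAC hearts against 421, 642 and 807 in IRS1KO sham hearts (log2 -0.98, limma adjusted p = 0.0052), with overlapping groups, and fell by 1.95 in IRS2KO and by 1.02 in WT. Of the other 4 regulators of channel genes, Irx3 fell in IRS1KO (-0.66) and IRS2KO (-0.69), Etv1 in IRS2KO (-0.47) and WT (-0.42), Irx4 in IRS1KO (-0.35), and Irx5 in none. Of 7 anchoring and scaffold genes, Cttn (log2 1.40, 1.13 and 1.00 in IRS1KO, IRS2KO and WT) and Cav3 (0.49, 0.65 and 0.56) rose, Ank2 fell (-0.70, -0.80 and -0.67), and Akap9 fell in IRS2KO and WT. Of 6 sodium-potassium pump genes, Atp1b1 (0.85, 0.81 and 0.64) and Atp1b3 (0.40, 0.43 and 0.55) rose, Atp1b2 (-1.02, -0.80 and -0.72) fell, and Fxyd1 fell in IRS1KO (-0.45). Of the 3 tested pacemaker channel genes, Hcn2 (-1.43, -1.28 and -0.61) and Hcn4 (-1.18, -0.69 and -0.94) fell.

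The TAC libraries differed among themselves in the same members. WT TAC 2, IRS2KO TAC 4, IRS2KO TAC 1 and IRS1KO TAC 5 had the highest Kcn sums of the TAC libraries, with 14400, 14172, 12741 and 12682 reads against 7758 to 10867 in the other 13. They also had the highest cardiomyocyte marker sums, 808260, 819653, 712013 and 677357. Their macrophage marker sums were 5587, 4382, 7061 and 5820. Leaving out any single library gave 19 to 22 falls and 10 rises in IRS1KO, 22 to 24 falls and 10 or 11 rises in IRS2KO, and 19 to 22 falls and 8 to 10 rises in WT. The matching shares of all tested genes are not given here.

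Between genotypes few of the 42 tested potassium channel genes were called, and few of all tested genes were. Genes below the filter are not in these counts. In sham hearts 2 of the 42 (4.76%) were called between IRS1KO and WT, where 4.65% of all tested genes were called. Between IRS1KO and IRS2KO sham hearts 3 (7.14%) were called, where 8.30% of all were. In TAC hearts 3 (7.14%) were called between IRS1KO and WT (background 4.70%). Between IRS2KO and WT none was called by limma, edgeR or DESeq2, where limma and edgeR called 0.0% of all tested genes in sham and in TAC hearts, and DESeq2 called 0.0146% in sham and 0.0% in TAC hearts. At an unadjusted limma p under 0.05 there were 2 members in sham hearts, where 3.9% of all tested genes passed, and 3 in TAC hearts, where 6.8% did, which is near the background. Between IRS1KO and IRS2KO TAC hearts limma called 0 (background 2.36%), edgeR 1 (Kcnj14, background 2.66%) and DESeq2 2 (Kcnj14 and Kcnk3, background 3.43%), all lower in IRS1KO. At an unadjusted limma p under 0.05 there were 4 members, where 12.3% of all tested genes passed.

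Kcnk2 was higher in IRS1KO than in WT hearts under both operations. It had 29.0, 37.4 and 46.5 in IRS1KO sham hearts against 16.8, 19.8 and 27.1 in WT sham hearts (1.80-fold, log2 0.82, SE 0.20, limma adjusted p = 0.0085). In IRS1KO TAC hearts it had 48.6, 65.7 and 75.9, against 25.1, 22.1, 33.3, 39.8 and 33.4 in WT TAC hearts (2.07-fold, log2 1.04, SE 0.20, limma adjusted p = 0.0014). The groups did not overlap in either comparison. Kcna4 was 2.06-fold higher in IRS1KO TAC hearts (28.2, 35.6 and 44.1) than in WT TAC hearts (8.08, 14.4, 21.6, 17.4 and 25.5), with no overlap (limma adjusted p = 0.0064). That call was lost when only the 2 groups entered the model (limma adjusted p = 0.059). Kcnk2 was also 1.72-fold higher in IRS2KO TAC than in WT TAC hearts (limma adjusted p = 0.55). Kcna4 was 1.66-fold higher there (limma adjusted p = 0.63). Neither passed the test, the groups overlapped, and limma called neither gene between IRS1KO and IRS2KO TAC hearts. In IRS2KO sham hearts Kcnk2 was 1.31-fold higher and Kcna4 1.59-fold lower than in WT sham hearts, also not past the test. In sham hearts Kcna4 was 2.25-fold higher in IRS1KO (22.4, 29.1 and 49.4) than in IRS2KO (7.38, 13.6 and 22.6; limma adjusted p = 0.0011), and Kcnip3 was 2.03-fold lower in IRS1KO (12.4, 17.8 and 36.6) than in IRS2KO (31.9, 43.7 and 49.4; limma adjusted p = 0.0029). In each of these pairs the groups overlapped at 1 library or more.

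With the same total per library the 3 calls between IRS1KO and WT TAC hearts were again 2 higher and 1 lower (background 6.83%), and those between the sham groups were 2 higher and 1 lower (background 4.59%).

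**Figure D4:**
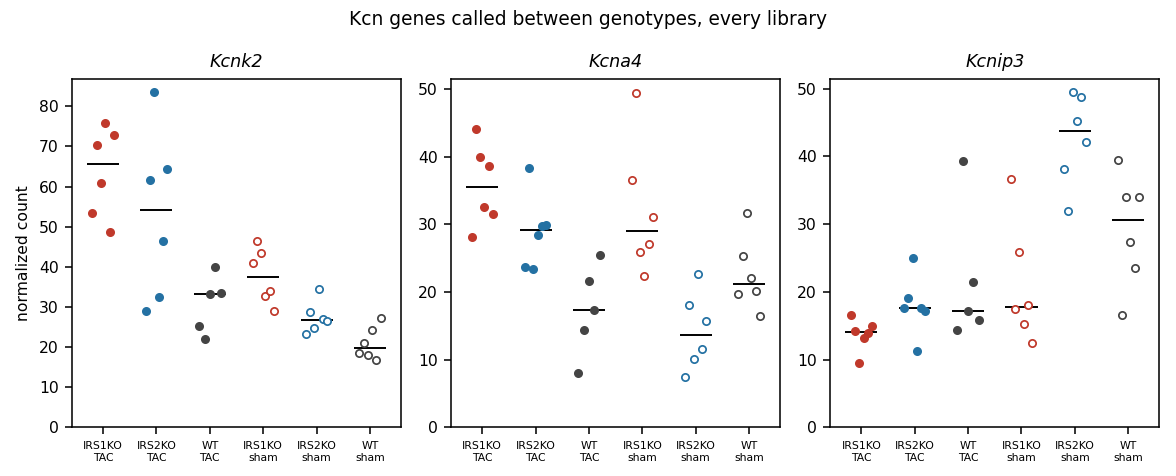
Normalised read counts (linear axis) of Kcnk2, Kcna4 and Kcnip3 in each library, with TAC groups as filled points, sham groups as open points and a black line at each group median. Kcnk2 is higher in IRS1KO than in WT under both operations, with 29.0 to 46.5 against 16.8 to 27.1 in sham hearts.

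A model of the 2 sham groups alone gave more calls than the model of 6 groups, among the members and among all genes. It called 5 members between IRS1KO and WT sham hearts, which were Kcnk2, Kcnj14, Kcnip2, Kcnd2 and Kcnk3, and it called 10.8% of all tested genes. There Kcnip2 was higher in IRS1KO (2843, 3104 and 3434 against 2023, 2209 and 2799 in WT, log2 0.47), with no overlap. The limma adjusted p of this difference was 0.00033 in the model of 2 groups and 0.62 in the model of 6. Kcnd2 was likewise higher in IRS1KO (335, 424 and 551 against 265, 305 and 342, log2 0.51; limma adjusted p = 0.0014 in the model of 2 groups and 0.31 in that of 6), and Kcnk3 lower (log2 -0.20; 0.027 and 0.30). The model of IRS1KO and IRS2KO sham hearts called 11 members, Kcnip2 (log2 0.47) and Kcnv2 (0.75) among them, where it called 15.7% of all tested genes. That of IRS2KO and WT sham hearts called 1 member, Kcnv2 (-0.53, limma adjusted p = 0.044), and 0.226% of all tested genes.

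Kcnj14 (Kir2.4), an inward rectifier described mainly from neurons, differed from the other members in how its values fell within the groups. It lies at chr7:45816460-45824782 on the minus strand of GRCm38. In IRS1KO TAC hearts it had 34.97, 93.3, 41.0, 84.4, 27.8 and 93.8, against 3.23, 9.69, 4.14, 8.16, 2.26 and 4.14 in IRS1KO sham hearts. In IRS2KO TAC hearts it had 645, 61.6, 56.8, 692, 786 and 371, against 12.3, 239, 269.6, 237, 16.7 and 329 in IRS2KO sham hearts. Among WT hearts, the 5 TAC libraries had 523, 354, 566, 612 and 759, against 302, 12.1, 268, 247, 273 and 271 in WT sham hearts. All IRS1KO libraries were low, and so were IRS2KO TAC 2 and 3, IRS2KO sham 1 and 5 and WT sham 2. Kcnj14 rose after TAC in IRS1KO (log2 3.30, SE 0.78, limma adjusted p = 0.00047, 11.9-fold), and its log2 fold changes of 1.44 in IRS2KO (adjusted p = 0.11) and 1.73 in WT (0.071) did not pass the test. In WT every TAC value lay above every sham value (2.46-fold). Without WT sham 2 the WT log2 fold change of Kcnj14 was 1.01. It was lower in IRS1KO than in WT in sham hearts (log2 -4.84, SE 0.78, limma adjusted p = 5.8e-05; -5.57 without WT sham 2), in IRS1KO than in IRS2KO sham hearts (-4.17, 0.00043), and in IRS1KO than in WT TAC hearts (-3.27, 0.014).

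Ush1c, a gene about 0.4 Mb away that was chosen after its values were seen, was low in the same libraries. It had 26.3 to 47.6 in IRS1KO TAC hearts, 69.9 and 82.7 in IRS2KO TAC 2 and 3 against 197 to 303 in the other IRS2KO TAC libraries, and 162 to 400.4 in WT TAC hearts. It had 16.9 to 53.8 in IRS1KO sham hearts, 54.1 and 42.3 in IRS2KO sham 1 and 5 against 137 to 320.2 in the other IRS2KO sham libraries, and 47.4 in WT sham 2 against 105 to 294 in the other WT sham libraries. Within 1 Mb of Kcnj14, 69 genes were tested. Between IRS1KO and WT 0 were higher and 6 lower in sham hearts (8.70%, against 4.65% of all tested genes). These 6 were Kcnj14, Ush1c, Gm9860, Slc17a7, Bcat2 and Gys1. In TAC hearts 1 was higher and 5 lower (8.70%, against 4.70% of all tested genes). Both counts include Kcnj14, around which the window was set, and Ush1c, which was chosen after its values were seen. None of the 69 genes was called between IRS2KO and WT. The genotype of this stretch of chromosome 7 was not tested.

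**Figure D5:**
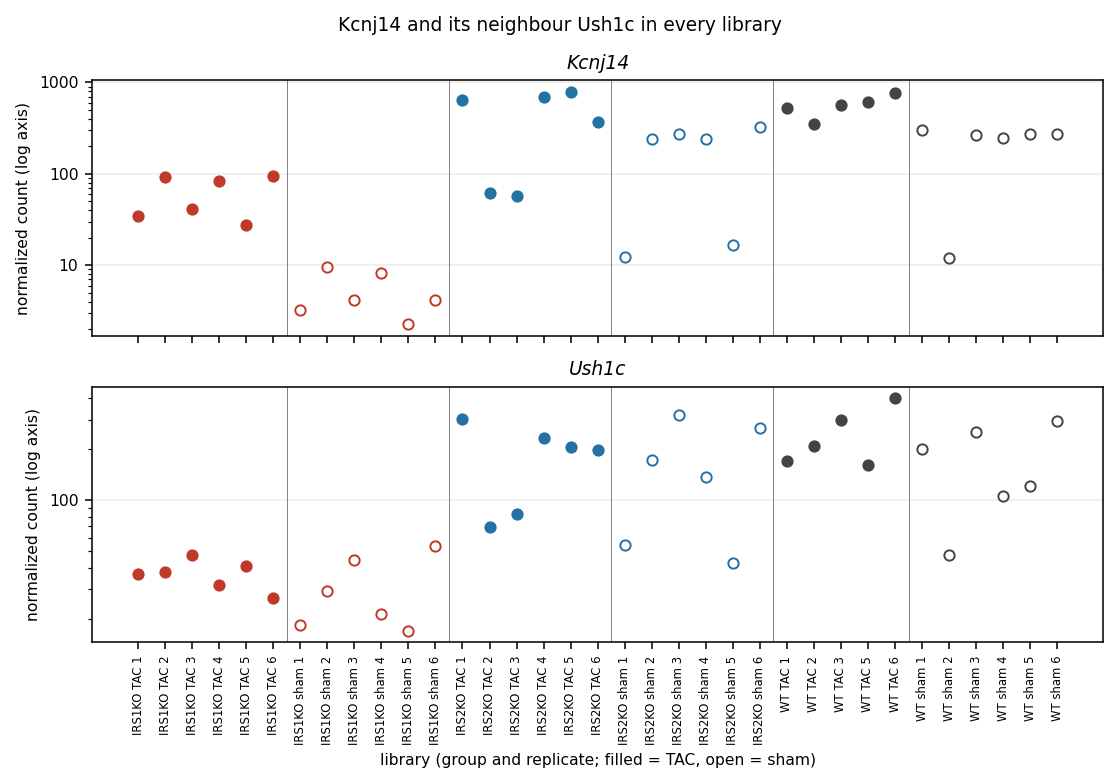
Normalised read counts (log axis) of Kcnj14 and Ush1c in each library, by group. All IRS1KO libraries, IRS2KO TAC 2 and 3, IRS2KO sham 1 and 5 and WT sham 2 are low for both genes.

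Whether the response to TAC differed between genotypes was tested as a difference of the log2 fold changes. Of the 42 members limma called 0 between IRS1KO and WT (background 0.11%), 0 between IRS2KO and WT (background 0.0%) and 0 between IRS1KO and IRS2KO (background 0.409%), and edgeR and DESeq2 also called 0 each. Over all tested genes edgeR called 0.139%, 0.0% and 0.307% in these comparisons and DESeq2 0.394%, 0.0% and 1.15%. At an unadjusted limma p under 0.05 there were 1, 2 and 3 members in these comparisons, where 8.88%, 5.21% and 11.4% of all tested genes passed, so the members were at or below the background. The deeper fall of Kcnip2 in IRS1KO than in WT was a difference of -1.20 (95% confidence interval -2.31 to -0.08, limma adjusted p = 0.56). For Kcna4 the response of IRS2KO exceeded that of WT by 1.46 (0.80 to 2.13, limma adjusted p = 0.62), and for Kcna5 the response of IRS1KO exceeded that of IRS2KO by 0.82 (0.29 to 1.35, limma adjusted p = 0.19). Each of these 3 intervals lies on 1 side of 0, but none of the differences passed after adjustment over the 13695 genes tested.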

How the data were processed

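RNA was extracted from the heart apex and sequenced from stranded mRNA libraries, per the labels' protocols. The submitters' processing notes name HISAT2 2.0.6, HTSeq 0.7.1, DESeq2 and GRCm38 without stating roles. The authors' deposited table holds a signal per gene and library, which is a read count divided by a size factor. Whole reads were recovered for 100% of values within a tolerance of 0.001, and the size factors equalled DESeq2's median of ratios over 14547 genes. Size factors centre the typical gene, so a shift shared by most genes is removed. Symbols and exon lengths came from GENCODE vM21 (26904 of 27012 IDs matched). Of 99 Kcn symbols in that annotation, 9 were not used here because no row of the table carried them. Libraries held 11707111 to 14609467 reads and 18599 to 20803 detected genes.

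The main test was limma 3.58.1 (trend, robust) on log2(value + 1), which understates changes of low genes. It used genes with a mean of at least 10, 1 model of all 6 groups, 12 contrasts and Benjamini-Hochberg adjustment at 0.05 over all genes tested. As alternatives, the recovered reads were tested with edgeR 4.0.16 and with DESeq2 1.42.0. Within limma, the pseudocount was set to 0.5 or 5, the filter was dropped or raised to 50, libraries were brought to an equal total, the model was limited to the groups compared or given a replicate block, and each library was left out in turn. The scripts were tested on simulated data (R 4.3.3, Python 3.11.15). Fold changes in words are ratios of group means of normalised counts.

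The potassium channel genes and the lists of partners and markers were chosen with earlier results of these data known. Values in every library or as ranges are given for Kcnip2, Kcnv2, Kcnj14, the genes of the main repolarising currents, and the 5 largest rises and falls of each contrast. Up to 4 called members of each partner list are named. Single values of a few genes are not reported here, though counts over all genes and lists include them. Promoters are RefSeq sequences of GRCm38.p6. No pair of libraries agreed within sampling noise (lowest chi-square per degree of freedom 2.41).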

Additional observations from a re-analysis of the deposited data

Results flagged for a closer look

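In 14 of 162 gene and group combinations (27 potassium channel genes in 6 groups), 1 library lay far from the rest of its group by Dixon's test, where chance gives about 1 in 20. WT TAC 2 was high for 4 genes that fell after TAC and for Kcnip3: Kcna7 had 32.64 there against 17.1 to 21.6 in the other WT TAC libraries, Kcnj11 had 1509 against 561 to 777, Kcnj12 had 290.8 against 168 to 186, Kcnj2 had 695.9 against 374 to 409, and Kcnip3 had 39.35 against 14.4 to 21.5. IRS1KO TAC 5 was high for Kcnh2 (860.4 against 489.9 to 577 in the other IRS1KO TAC libraries), Kcnj2 (620.5 against 146 to 305) and Kcnj3 (453.0 against 121 to 240.1). WT TAC 2 and IRS1KO TAC 5 also had the highest cardiomyocyte marker sums of their groups, and the part of this in their values was not tested.

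Among sham libraries, Kcnj14 had 12.13 in WT sham 2 against 247 to 302 in the other WT sham libraries. Kcna5 had 216.0 in IRS1KO sham 2 against 343 to 389.5 in the others of that group, and Kcnab1 had 24.47 in IRS1KO sham 4 against 9.32 to 14.7. Kcnh2 had 865.7 in IRS2KO sham 5 against 996 to 1068, and Kcnk13 had 11.54 in the same library against 3.61 to 6.47. Kcnj3 had 919.7 in WT sham 6 against 665 to 717.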

How the results depend on the processing

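Of 125 results on single potassium channel genes, 97 passed the test. Of these 80 kept their direction and call under every alternative, 17 changed under some alternative, 14 of them with the same total per library, and 10 when a library was left out. The causes were not tested, except that a stricter filter tests fewer genes and no filter more. With a mean of at least 50, the counts of genes that rose were 5 in IRS1KO, 4 in IRS2KO and 4 in WT, and without a filter 18 rose in IRS1KO. Between IRS1KO and WT sham hearts 4 genes were called without a filter, 1 with a mean of at least 50 and 5 with only the groups compared. Between IRS2KO and WT sham hearts only the groups compared gave 1, and between IRS1KO and IRS2KO sham hearts 11, against 1 with a mean of at least 50. Between IRS1KO and WT TAC hearts a mean of at least 50 gave 1, and leaving out a library gave 3 to 5. Between IRS1KO and IRS2KO TAC hearts edgeR gave 1, DESeq2 gave 2, and leaving out a library gave 0 to 2. Shares of all genes called with the other filters or without a library are not given here. Those counts thus have no background to be read against.

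Signs changed for 10 results, of which 1 had passed the test. With the same total per library, log2 fold changes after TAC turned to 0.21 for Kcnab1 and 0.15 for Kcng2 in WT, to 0.23 for Kcng2 in IRS1KO, and to 0.093 for Kcnh7, 0.059 for Kcnk3 and 0.13 for Kcnt2 in IRS2KO. Kcnab1 in WT was 0.017 with edgeR and 0.016 with DESeq2, and Kcnn3 in IRS1KO was -0.0013 with edgeR. Leaving out a library gave -0.22 to 0.13 for Kcnab1 and -0.065 to 0.15 for Kcnt2 in WT, -0.16 to 0.16 for Kcnn3 and -0.021 to 0.28 for Kcnq5 in IRS1KO, and -0.40 to 0.036 for Kcnh7 and -0.078 to 0.50 for Kcnn3 in IRS2KO.

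A replicate block changed 3 of the 125 results: Kcnab1 in WT turned to 0.035, and Kcnj14 in WT (log2 1.91, limma adjusted p = 0.0499) and Kcnq1ot1 in IRS2KO (-0.42, 0.023) passed the test. The block gave counts of members called after TAC of 22 lower and 10 higher in IRS1KO, 24 and 11 in IRS2KO, and 21 and 10 in WT. The share of all tested genes called with the block is not given here. The labels do not say what a replicate number marks. Over 85 pairs, same-numbered libraries had correlated deviations from their group means of r = -0.60 to 0.57, so the numbers were not taken as pairs. In 33 of the 85 a library correlated best with its own number in the other group, where chance gives about 14.2, and the 6 pairs of IRS1KO and IRS2KO sham libraries were all positive (0.07 to 0.35, 5 best with their own number). The pairs reuse the same libraries and are not independent. Whether same-numbered libraries share a source of variation was not tested. Kcnj14 in WT also passed with only the groups compared (limma adjusted p = 0.049), and Kcnip3 in IRS1KO passed with edgeR (0.033) and DESeq2 (0.040). Depth limits the 48 genes below the filter and the low values of Kcnn4, Kcnt1 and Kcnk13.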
